A study of Mus musculus with 16 samples.

Results

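Untreated MEKK1+/+ mammary fibroblasts are the reference state of this series, the cells of normal genotype before any signal from tumor cells. They were chosen by title: the 4 arrays labelled MEKK1+/+ control, replicates 1 to 4, of 16 arrays in all, with every one of 18132 gene rows. The fibroblasts were primary cultures from the inguinal mammary glands of female 129S6 mice, 8 to 10 weeks old, grown in DMEM with 10% FBS and kept in that medium for the 8 h of the experiment. Of the remaining 12 arrays, 4 were of the same cells given medium from the breast cancer line MDA-MB-231, and 8 were of MEKK1-/- fibroblasts of the same strain, sex and age, 4 in each medium. Those arrays enter only the normalization and a short comparison of spread.

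Several features limit these cultures as a model. The glands were digested with collagenase and hyaluronidase, floating fat and an epithelial pellet were discarded, and the remaining cells were plated, with no sorting step described. RNA came from 3 MEKK1+/+ mice, and neither the labels nor the text of the paper ties a culture to a mouse. With 4 cultures from 3 mice at least 1 mouse must have given more than 1 culture, unless mice were pooled, so the SD given with each value is a spread between cultures.

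Fibroblasts are the mesenchymal cells that build the connective tissue of an organ. They secrete collagens, proteoglycans and glycoproteins, the enzymes that crosslink these into fibers, and the proteases that take them apart again. In the mammary gland they lie around the ducts and exchange growth factors and chemokines with the epithelium and with immune cells, and in culture on plastic with serum they spread and build thick actin fibers. MEKK1, encoded by MAP3K1, is a kinase at the head of a MAP kinase cascade.

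The measure is the brightness of a gene's probe on an Illumina Mouse 8 array. The authors deposited 1 linear intensity per gene symbol and array. It was converted to log2 and quantile normalized, so that all arrays share 1 set of values, and the level of a gene below is its mean normalized log2 intensity over the 4 arrays, given ± SD where an SD is shown. Probes differ in how brightly they report the same amount of RNA, so an order of levels between genes is an order of probe signals and not of transcript numbers. Olfactory receptor genes served as rows with little or no transcript: on each array the 99th percentile of 1075 such rows was taken as background. It lay between 7.21 and 7.25 on the normalized scale. A gene is called on when it was above background on all 4 arrays, off when it was above on none, and mixed otherwise. An off call says that a probe gave no signal above this level and does not show that the transcript was missing. The glycolytic enzyme gene PGK1 and the ribosomal protein genes RPSA, RPL14 and RPS23, which growing cells use, were also off.

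By this measure 7644 genes were on, which is 42.2% of all genes, 9041 were off (49.9%) and 1447 were mixed (7.98%). The median intensity of an array as deposited ran from 114.3 on replicate 4 to 166.6 on replicate 1, and from 8249 to 8430 genes were above background on an array. The correlation of log2 intensity between arrays, across genes, ran from 0.979 (replicates 2 and 4) to 0.992 (replicates 1 and 3), and 0 pairs of arrays were identical. The genes nearest the limit were LOC381066, ZC3HAV1 and PPM1L just inside and OLFR1094, PAK1 and LOC100047653 just outside, each within 0.001 of it on the closest array. Of the olfactory receptor rows themselves 5 were on, 17 mixed and 1053 off. MAP3K1 was on but dim, at 7.95, 7.77, 7.60 and 7.51 on replicates 1 to 4.

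**Figure D1:**
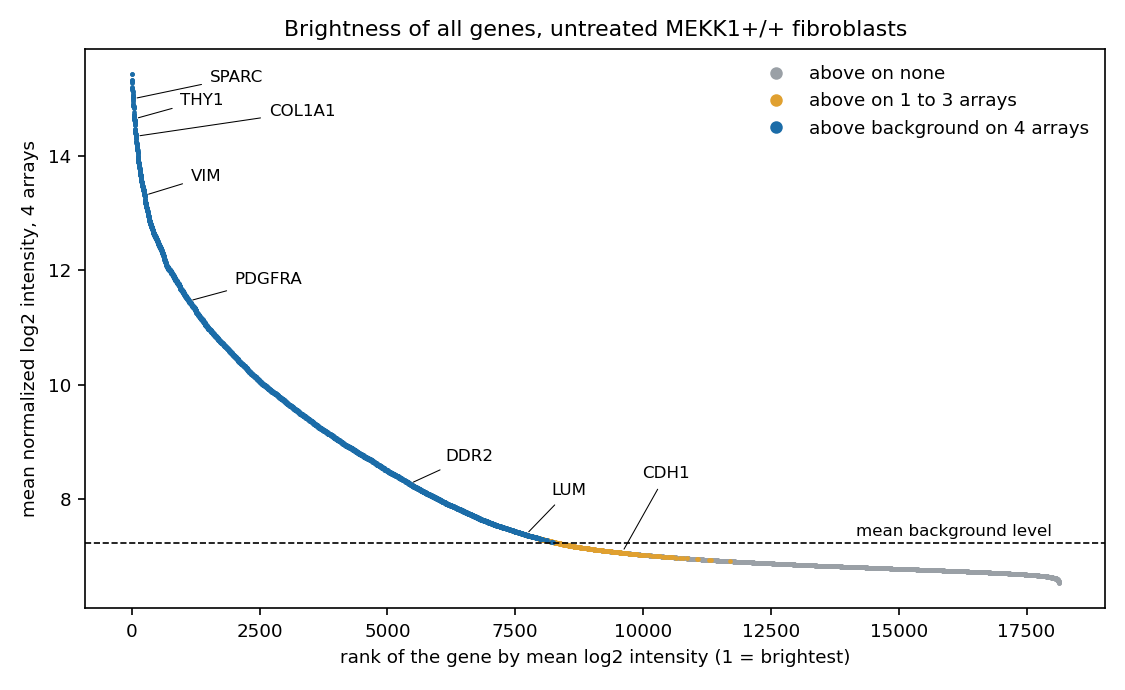
Mean normalized log2 intensity of all 18132 genes against their rank, 1 being the brightest, in 4 untreated MEKK1+/+ cultures. Blue points were above background on 4 arrays, orange on 1 to 3 and grey on none, and the dashed line is the mean background level (7.23). The curve falls steeply over the brightest genes, where the fibroblast marker THY1 lies, and flattens below the line.

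The defining markers of fibroblasts were bright in every culture. THY1, a surface glycoprotein of fibroblasts, had a log2 intensity of 14.58, 14.62, 14.74 and 14.64 on replicates 1 to 4. Vimentin (VIM), the intermediate filament of mesenchymal cells, was at 13.29, 13.44, 13.29 and 13.22, and PDGFRA, the receptor for platelet-derived growth factors, at 11.46, 11.32, 11.54 and 11.53. All 3 were on, and their ranges between cultures were 0.17, 0.22 and 0.22 on the log2 scale. Of the 12 fibroblast markers examined 11 were on, beside 42.2% of all genes. COL1A1 was at 14.34 ± 0.27, decorin (DCN) at 12.96 ± 0.73 and S100A4 at 11.05 ± 0.23. FAP, a serine protease of activated fibroblasts, was at 8.84 ± 0.63. The proteoglycan lumican (LUM) was mixed, above background on 2 arrays.

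Markers of epithelial, endothelial, blood and mature fat cells were mostly at or near background. Beside the counts that follow, 42.2% of all genes were on and 49.9% were off. Among 14 epithelial genes 10 were off, including E-cadherin (CDH1), the basal keratins KRT5 and KRT14, KRT18 and the milk genes CSN2 and WAP. The 4 that were on, KRT19, KRT7, KRT8 and CLDN7, had levels of 8.06, 7.61, 7.46 and 7.46, all close to background. Of 10 endothelial genes only TEK was on (7.37) and 5 were off, among them PECAM1, CDH5 and KDR. The other 4, EMCN, ESAM, CLDN5 and VWF, were mixed, EMCN with a mean of 7.44. Of 9 lymphocyte genes 0 were on and 7 were off, and all 5 red blood cell genes were off. Adiponectin (ADIPOQ), FABP4 and leptin (LEP), which mark mature fat cells, were off, although lipoprotein lipase (LPL) was bright at 13.46 ± 0.29 and PPARG, the regulator of fat cell differentiation, was on at 7.47. A mean over bulk RNA cannot tell fewer cells of a type from less RNA per cell, and this holds for every list that follows.

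Macrophage markers were mostly on. Of 17 such genes 13 were on, beside 42.2% of all genes, 1 was mixed (FCGR1) and 3 were off (PTPRC, FCER1G and ITGAM). CD14, the lipopolysaccharide coreceptor, was at 12.05, 9.53, 12.02 and 11.88 on replicates 1 to 4. EMR1, which encodes the macrophage antigen F4/80, was at 10.05, 7.65, 9.49 and 10.23, and the lysozyme gene LYZS at 12.13, 10.70, 12.10 and 11.54. In all 3 genes replicate 2 was the lowest array, still above background. The brightest of the list was LAPTM5, a lysosomal membrane protein of blood cells, at 12.82, 11.97, 12.96 and 12.48, followed after LYZS and CD14 by the complement gene C1QB at 11.83, 10.66, 11.45 and 10.40. Summed over the list as deposited, the intensity was 41669 on replicate 1, 14081 on replicate 2, 31058 on replicate 3 and 15848 on replicate 4, against 108143, 90170, 91523 and 67259 for the fibroblast list. The defining marker PTPRC, the leukocyte antigen CD45, was off. How much of any other gene's signal came from such cells was not tested.

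Genes of contractile cells were partly on. ACTA2, the smooth muscle actin that also marks myofibroblasts, was at 14.73, 14.72, 14.65 and 14.61, a range of 0.12 between cultures. Transgelin (TAGLN) was at 11.44 ± 0.32 and smoothelin (SMTN) at 9.89 ± 0.15. In this list 7 of 10 genes were on, beside 42.2% of all genes. CNN1, a calponin of differentiated smooth muscle, and RGS5, a pericyte gene, were off, and desmin (DES) was mixed. ACTA1, the skeletal muscle actin, was on at 10.99 ± 0.43, whereas MYOD1, MYOG, CKM and MYH4 were off. Of 5 Schwann cell genes 3 were on, among them the neurotrophin receptor NGFR at 8.39, 9.55, 9.58 and 9.30 and the myelin gene MBP, close to background at 7.39, and 2 were off, among them S100B.

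The brightest genes included many of ribosomal proteins, the matrix and the cytoskeleton, beside genes in none of these classes. MIF, a secreted inhibitor of macrophage migration, ranked first at 15.43 ± 0.059, followed by the ribosomal protein gene RPL41 at 15.42 ± 0.042. The calcium-binding protein S100A11 (15.33), SERPINF1, the secreted factor also called PEDF (15.32), the iron store ferritin heavy chain (FTH1, 15.30) and the lectin galectin-1 (LGALS1, 15.16) were among the 30 brightest. So were PPIA (15.09), the ubiquitin gene UBB (15.04), TUBA1B (15.02), the metal-binding MT1 (15.02), TMSB4X (15.004), which binds actin monomers, and ANXA2 (14.93). Further ribosomal protein genes of this set included RPL35, RPLP1, RPS12, RPL9, RPS2 and RPL28, and 6 rows carry placeholder names, LOC675813, LOC666904, LOC100042427, LOC100047615, EG668668 and EG622339. Several ribosomal protein genes and placeholder rows have near-identical copies in the genome, so their probes may read more than 1 gene.

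Matrix genes held 4 of these 30 places. Biglycan (BGN), a small proteoglycan that binds collagen, was at 14.998, 15.05, 15.07 and 15.02 on replicates 1 to 4, and SPARC, which binds collagen and calcium, was at 14.97, 15.09, 14.998 and 14.94. CTGF, a connective tissue growth factor, was at 15.43, 14.74, 15.09 and 14.63, and thrombospondin 2 (THBS2) at 14.87, 15.06, 14.94 and 14.94. The 4 cultures lay within 0.2 of each other for BGN, SPARC and THBS2. CTGF was the exception of the 4, highest on replicate 1 and lowest on replicate 4. Of the 100 brightest genes 25 encoded cytosolic ribosomal proteins, 10 were in the matrix lists, 6 in the cytoskeleton list, 4 in the glycolysis list and 17 had placeholder names. Of all 18132 genes these classes held 0.342%, 0.899%, 0.116%, 0.0717% and 3.64%. The 30 brightest genes held from 6.25% to 7.38% of the summed intensity of an array and the 1000 brightest from 57.1% to 58.9%.

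The matrix lists held 163 genes, of which 93 (57.1%) were on, beside 42.2% of all genes. Among 11 fibrillar collagens 6 were on. COL1A1 and COL5A1 led at 14.34 ± 0.27 and 14.33 ± 0.11, then COL3A1 at 11.83 ± 0.15, COL1A2 at 10.63 ± 0.33 and COL5A2 at 9.47 ± 0.41, while the cartilage collagens COL2A1, COL11A1 and COL11A2 were off. The type I collagen fiber is built from the products of COL1A1 and COL1A2, whose probes differed by more than 3 on the log2 scale. Of 25 other collagens 10 were on. COL4A1 (13.93 ± 0.27) and COL4A2 (13.70 ± 0.26), the chains of ordinary basement membrane, were bright. Of the other type IV chains COL4A5 was on at 9.06 ± 0.26. COL4A3, COL4A4 and COL4A6, chains of specialized basement membranes, were off. COL16A1 (12.86), COL12A1 (12.26), COL6A1 (11.95) and COL6A2 (11.18) were also on, and COL9A1, COL10A1 and COL17A1, collagens of cartilage and epithelium, were off.

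Basement membrane glycoproteins were on for 8 of 12 genes. Perlecan (HSPG2) was the steadiest, at 12.56, 12.52, 12.52 and 12.52, and agrin (AGRN) the least steady, at 11.26, 10.82, 11.83 and 12.69. Nidogen 1 (NID1) was at 11.998, and the laminin chains LAMC1 and LAMB2 were at 11.76 and 11.36. LAMB3 and LAMC3 were off, LAMB3 being a chain of an epithelial laminin.

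Among 44 matrix glycoproteins 25 were on. After SPARC, CTGF and THBS2 came FBLN2 (13.76 ± 0.087), osteopontin (SPP1, 13.55 ± 0.39) and the microfibril component MFAP5 (13.16 ± 0.036). Fibrillin 1 (FBN1, 12.34 ± 0.30) and tenascin C (TNC, 11.98 ± 0.38) were also well above background. Periostin (POSTN, 7.46 ± 0.045), a glycoprotein of remodelling tissue, was barely on, elastin (ELN) was mixed, and COMP, the matrilins MATN1 to MATN4 and FBLN5, which elastic fibers need for assembly, were off. Of 27 proteoglycans 13 were on, led by BGN, glypican 1 (GPC1, 12.98 ± 0.24), decorin (12.64, 12.23, 13.04 and 13.93 on replicates 1 to 4) and PRELP (12.29, 12.22, 13.49 and 13.31). Aggrecan (ACAN) and the brain proteoglycans BCAN and NCAN were off.

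Nearly the whole machinery that processes collagen was on, 17 of 18 genes. Lysyl oxidase (LOX), which crosslinks collagen and elastin, was at 14.72, 14.57, 14.73 and 14.42, and LOXL1 was at 14.38 ± 0.12. P4HB, a subunit of prolyl hydroxylase, was at 14.43 ± 0.093, the lysyl hydroxylase PLOD3 at 13.69 ± 0.19 and the collagen chaperone SERPINH1 at 12.61 ± 0.12. LOXL4 was the single member that was off. Of 22 matrix metalloproteinases 11 were on. The membrane-type MMP14 (13.87, 14.07, 14.17 and 14.07) and the gelatinase MMP2 (13.65, 13.68, 14.08 and 14.22) were bright in every culture. MMP3, a stromelysin, was at 11.57, 9.28, 11.76 and 13.11 and the gelatinase MMP9 at 8.89, 8.18, 9.65 and 11.48, both lowest on replicate 2 and highest on replicate 4. MMP7 and MMP8 were off. Their inhibitors TIMP1 (14.88 ± 0.31), TIMP2 (13.55 ± 0.37) and TIMP3 (12.82 ± 0.20) were on and TIMP4 was off.

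**Figure D2:**
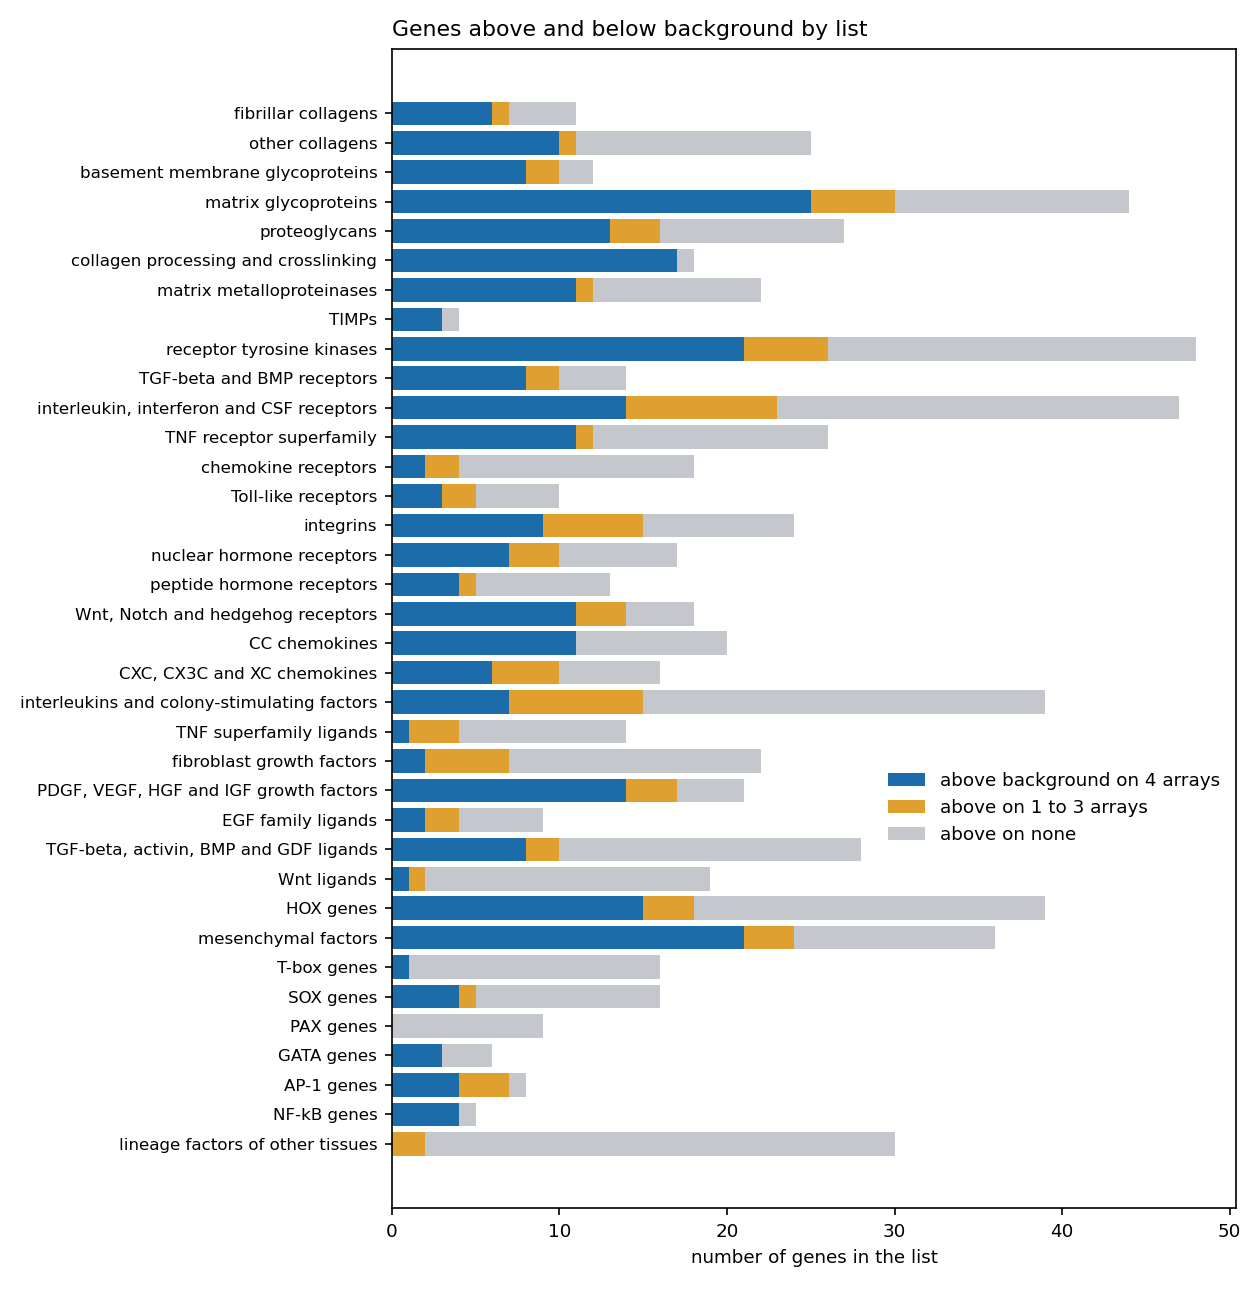
Number of genes above background on 4 arrays (blue), on 1 to 3 arrays (orange) and on none (grey) in 36 lists of matrix, receptor, cytokine and transcription factor genes. The list of collagen processing genes is blue for 17 of 18 genes, and the bars of PAX genes and lineage factors of other tissues hold no blue.

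Of 235 receptor genes 90 (38.3%) were on, beside 42.2% of all genes. Among 48 receptor tyrosine kinases 21 were on. AXL, the receptor of GAS6, was by far the brightest at 14.41, 14.16, 14.42 and 14.38, and its ligand GAS6 was on as well at 12.67, 12.27, 12.89 and 12.72. RYK followed at 12.11 ± 0.083, then PDGFRA and PDGFRB (11.42 ± 0.21), EGFR (10.25 ± 0.25) and the Wnt5a receptor ROR2 (9.69 ± 0.16). The collagen receptors DDR1 and DDR2 were at 9.41 and 8.26, and IGF1R and FGFR1 at 8.69 and 8.12. FGFR2, FGFR3, FGFR4, MET, KDR, RET and FLT3 were off, and ERBB2 and KIT were not analysed here. CSF1R, the receptor of macrophages for CSF1 and itself in the macrophage list, was at 9.34, 7.86, 8.74 and 9.04, lowest on replicate 2.

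The TGF-beta receptors TGFBR2 (12.22 ± 0.16), TGFBR3 (10.85 ± 0.27) and TGFBR1 (9.74 ± 0.25) were on, with endoglin (ENG) at 10.57 ± 0.19, and 8 of 14 genes of this list were on. Of 47 receptors for interleukins, interferons and colony-stimulating factors 14 were on. The brightest was IL11RA1 (12.73 ± 0.37), followed by the oncostatin M receptor OSMR (11.35 ± 0.34) and IL6ST (10.90 ± 0.16), the signalling chain that the IL-6 family shares. The IL-33 receptor IL1RL1 was at 10.52, 9.97, 10.69 and 12.09. The interferon receptors IFNGR1 (9.20), IFNGR2 (8.67) and IFNAR2 (8.11) were on, while IFNAR1, IL6RA, IL1R1, IL7R and IL2RA were off.

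Of 26 members of the TNF receptor superfamily 11 were on, led by TNFRSF12A, the receptor of TWEAK (12.65 ± 0.092), and the decoy receptor osteoprotegerin (TNFRSF11B, 10.74 ± 0.42). TNFRSF1A was on at 8.35 and TNFRSF1B was off. Of 18 chemokine receptors 2 were on, and both were dim, with CX3CR1 at 7.58, 7.52, 7.97 and 7.41 and CCRL2 at 7.49, 7.45, 7.49 and 7.76. CXCR4, the receptor of CXCL12, was mixed, and CCR1, CCR2, CCR3 and CXCR3 were off. Toll-like receptors were on for 3 of 10 genes, of which TLR2, a sensor of bacterial lipoproteins, varied most, at 10.41, 8.20, 10.21 and 10.20.

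Integrins, the receptors that anchor cells to matrix, were on for 9 of 24 genes. ITGB5 (12.75 ± 0.14), the collagen-binding ITGA11 (12.16 ± 0.27) and the fibronectin receptor chain ITGA5 (10.98 ± 0.33) were brightest, with ITGB1 at 9.04 ± 0.15 and ITGAV at 8.75 ± 0.25. The leukocyte integrins ITGAM, ITGAX and ITGAE were off. Estrogen receptor alpha (ESR1) was off, and the progesterone receptor (PGR) was mixed, while RXRB (9.56 ± 0.48) and the vitamin D receptor VDR (9.35 ± 0.20) led the 7 nuclear receptors that were on of 17. Among 13 receptors of peptide hormones 4 were on, which were the vasopressin receptor AVPR1A (11.29, 11.38, 11.49 and 10.97), the growth hormone receptor GHR (11.15, 11.18, 11.18 and 10.61), the angiotensin receptor AGTR1A (9.82 ± 0.39) and the endothelin receptor EDNRA (8.95 ± 0.40). The prolactin receptor PRLR was off. For Wnt, Notch and hedgehog signals 11 of 18 receptors were on, with FZD2 (11.01 ± 0.19), FZD7 (10.38 ± 0.34) and FZD5 (10.21 ± 0.61) brightest.

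Of 188 cytokine and growth factor genes 52 (27.7%) were on, beside 42.2% of all genes. Chemokines, which draw leukocytes along a gradient, were among them. Of 20 CC chemokines 11 were on. CCL7 was at 14.94, 13.76, 14.76 and 14.998 and CCL2, the main attractant of monocytes, at 13.73, 10.97, 13.49 and 14.03. CCL11, the eosinophil attractant eotaxin, was at 11.12, 9.55, 11.89 and 13.42. In all 3 the lowest array was replicate 2 and the highest replicate 4. CCL5 was at 9.15, 7.64, 9.63 and 9.86, again lowest on replicate 2. CCL19, CCL20, CCL21A, CCL22 and CCL24 were off, and CCL12 was not analysed here.

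Of 16 chemokines of the other families 6 were on. CXCL1, which attracts neutrophils, was at 13.96, 9.44, 13.69 and 15.18, a range of 5.74 on the log2 scale. CXCL14 was at 12.73, 11.01, 11.94 and 12.40, and CXCL12, the ligand of CXCR4, at 8.68, 9.70, 10.08 and 10.08. CXCL4, the platelet factor now named Pf4, was at 12.90, 9.57, 11.64 and 11.62, highest on replicate 1. CXCL9 and CXCL10, attractants of activated T cells, and CXCL2 were mixed, and CXCL13 and CXCL11 were off.

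Among 39 interleukins and colony-stimulating factors 7 were on. CSF1, the macrophage growth factor, was brightest and fairly steady at 12.12, 11.72, 12.18 and 12.68. IL6 was at 10.79, 8.29, 9.66 and 11.69 and IL11 at 10.41, 8.51, 8.68 and 9.85. IL33, IL18, CTF1 and IL15 were on between 7.61 and 7.93. IL1B was mixed at 10.07, 6.88, 9.57 and 11.43, below background on replicate 2 alone. The T cell cytokines IL4, IL5, IL17A and IL22 were off and IL13 was mixed. Of 14 TNF superfamily ligands the B cell factor TNFSF13B was the only one on (8.81 ± 0.53), and TNF was mixed.

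Growth factors fell into lists that were mostly on and lists that were mostly off. Of 22 fibroblast growth factors 2 were on, FGF7 (12.19, 11.29, 12.14 and 12.26) and FGF10 (8.41, 8.23, 9.37 and 9.39), both of which act from mesenchyme on the FGFR2 of epithelia. FGFR2 itself was off, as given above, and FGF5 and FGF2 were mixed. Of 21 genes for PDGF, VEGF, HGF, IGF and related factors 14 were on, with GAS6, PDGFA (12.32 ± 0.16), VEGFB (10.80 ± 0.22), FIGF (10.68 ± 0.49), which is VEGF-D, VEGFA (10.49 ± 0.24) and VEGFC (10.08 ± 0.81) brightest. IGF1 was at 8.49, 8.67, 9.66 and 9.46 and HGF barely on at 7.68 ± 0.21. NRG1 (8.89 ± 0.25) and HBEGF (8.37 ± 0.18) were the EGF family ligands that were on of 9, and EGF, TGFA and EREG were off. In the TGF-beta family 8 of 28 ligands were on, led by INHBA, the activin A subunit, at 13.50, 12.98, 12.86 and 13.06, then GDF15 (11.17 ± 0.87), TGFB1 (10.16 ± 0.086) and TGFB3 (9.79 ± 0.24). BMP2, BMP4, BMP6 and BMP7 were off. WNT5A was the single Wnt ligand that was on of 19, at 9.79, 9.43, 9.26 and 9.15.

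Transcription factor genes were on in 52 of 160 cases (32.5%), beside 42.2% of all genes. HOX genes, which keep a record of position along the body axis, were on for 15 of 39. HOXC6 was brightest at 12.55, 12.49, 12.65 and 12.64 on replicates 1 to 4, and HOXC9 followed at 11.15, 11.77, 11.25 and 11.20. HOXB2 (10.19 ± 0.18), HOXB7 (9.92 ± 0.32) and HOXC10 (9.84 ± 0.47) came next. The 4 cultures were alike in HOXC6, with a range of 0.16. In the A cluster HOXA4, HOXA5 and HOXA7 were on, and in the B cluster HOXB2, HOXB4 to HOXB7 and HOXB9. In the D cluster HOXD8 (8.72) and HOXD9 (7.34) were on. At the posterior end of the clusters HOXA10, HOXA11, HOXA13, HOXB13, HOXC11, HOXC12 and HOXD10 to HOXD13 were off, and HOXC13 was on but dim at 7.53 ± 0.18. The calls were not continuous along a cluster, since HOXC8 and HOXB8 were off between neighbours that were on.

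**Figure D3:**
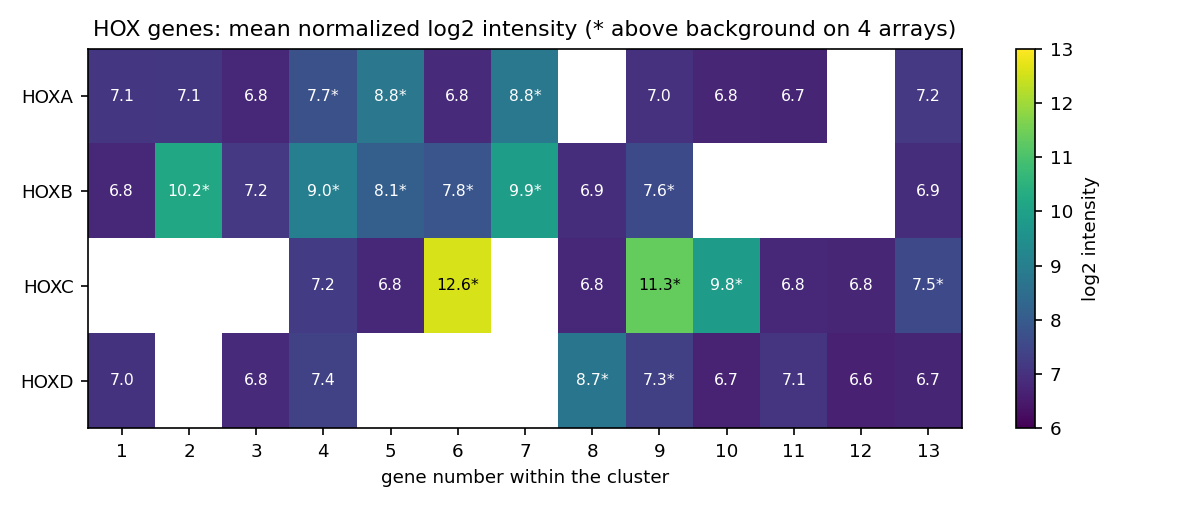
Mean normalized log2 intensity over 4 cultures of the 39 HOX genes on the array, by cluster and by number within the cluster. An asterisk marks a gene above background on 4 arrays, white cells have no gene or no row, and the color scale runs from 6 to 13. HOXC6 and HOXC9 are the brightest cells, and genes numbered 11 to 13 are dark apart from the dim HOXC13.

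Of 36 factors of mesenchymal development 21 were on. AEBP1, a regulator of connective tissue genes, was at 13.54, 13.16, 13.44 and 13.37, and TWIST2 was at 11.36, 11.50, 11.61 and 12.64. NFATC4 (11.56 ± 0.34), HIC1 (10.73 ± 0.33), YAP1 (10.71 ± 0.17), TWIST1 (10.62 ± 0.10), TEAD2 (10.44 ± 0.31) and ZEB1 (10.36 ± 0.26) were on, as was PRRX1, a marker of limb and skin mesenchyme, at 9.46, 9.57, 9.30 and 9.60. EN1, an engrailed homeobox gene, was on at 9.25 ± 0.35. The visceral mesenchyme factors TCF21, FOXF1A and FOXF2 were off, and so were PITX1, HAND1, HAND2, GLI1 and GLI3. Among 16 T-box genes only TBX3, a gene needed for mammary development, was on (7.87, 8.02, 7.96 and 8.32), and TBX2, TBX4, TBX5 and TBX15 were off.

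GATA6 (10.17, 10.27, 10.23 and 10.40) and GATA2 (9.13 ± 0.36) were on with a dim GATA3 (7.40 ± 0.10), while GATA1, GATA4 and GATA5 were off. All 9 PAX genes were off, and 4 of 16 SOX genes were on, SOX9 brightest at 7.97 ± 0.31. Of 8 AP-1 genes 4 were on, JUNB (11.57 ± 0.27), FOS (8.75 ± 0.44), JUN (8.47 ± 0.28) and the row JUND1 (7.69). Of 5 NF-kB genes 4 were on, with RELA at 11.81, 11.77, 12.16 and 12.20 and NFKB1 at 10.23, 9.52, 10.25 and 10.89, and REL was off. Among 30 lineage factors of other tissues 0 were on. MYOD1, PAX5, FOXP3, POU5F1, NANOG, FOXA1, ELF5 and TRP63 were off, HNF4A was mixed, and SFPI1, the myeloid factor PU.1, was mixed.

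Housekeeping families and families of known tissue restriction were counted as well, to show the range of the calls around the 42.2% of all genes that were on. Mitochondrial complex I subunits were on for 34 of 35 genes, mitochondrial ribosomal proteins for 66 of 71, proteasome subunits for 30 of 36 and translation initiation factors for 41 of 54. At the other end 0 of 135 vomeronasal receptors, 0 of 32 bitter taste receptors, 0 of 21 keratin-associated proteins, 0 of 16 GABA-A receptor subunits and 0 of 7 voltage-gated sodium channel alpha subunits were on. Of 45 keratins 5 were on, KRT10 brightest at 9.24 ± 0.13. Of 34 beta-defensins DEFB25 was the single one on, at 7.77. Genes listed under the unfolded protein response of the endoplasmic reticulum were all on, 14 of 14. Among them HSP90B1 was at 14.49, 13.77, 13.79 and 13.53 and the disulfide isomerase PDIA3 at 13.32 ± 0.18.

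Cultures differed little for most genes. Among the 9091 genes above background on at least 1 array the median SD of log2 intensity was 0.159, a 1.12-fold step, and 65.0% of them had an SD under 0.2. The 95th percentile of SD was 0.442 and the 99th 0.884. By level the median SD of on genes was 0.127 for the 1680 below 8 and 0.179 between 8 and 10. It was 0.187 between 10 and 12, 0.169 between 12 and 14 and 0.107 from 14 up. The spread of signal was thus smaller at both ends of the scale than between. How far the background level and the normalization set these small SDs was not tested. An SD above 1 was reached by 76 genes (0.836%), which were picked by this value, so what follows describes them and tests nothing. Of the 76 genes 74 had their lowest value on replicate 2, where 23.3% of all 9091 genes did. Replicate 4 was highest for 66 of the 76, beside 25.5% of all genes, and 65 genes (85.5%) combined both, beside 11.2% of all genes.

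Of the 76 genes 30 were in a list used here, among them 11 interferon-stimulated genes, 11 chemokines and 3 metalloproteinases, with CXCL10 counted in both of the first groups, and 46 were in no list. SAA3, an acute phase protein, had the largest SD, with 13.32, 8.11, 13.97 and 15.07 on replicates 1 to 4, and CXCL1, given above, the next largest. CCL3, which attracts monocytes and lymphocytes, was at 11.29, 7.43, 11.66 and 12.40 and CCL4 at 11.41, 8.52, 11.86 and 12.55. In each of these 4 genes replicate 2 lay far below the other 3 arrays and replicate 4 was highest. S100A8, a calcium-binding protein of myeloid cells, was at 9.92, 7.0001, 9.28 and 11.77. LCN2, which binds bacterial siderophores, was at 7.80, 6.50, 7.85 and 10.71, and complement C3 at 9.85, 7.67, 10.58 and 11.89. LCN2 was below background on replicate 2. FPR2, a receptor for bacterial peptides, was at 10.24, 7.20, 10.25 and 10.53 and SLPI, a protease inhibitor, at 10.49, 7.89, 10.21 and 11.44. FPR2 differed little among the 3 arrays other than replicate 2, where it was below background.

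Several interferon-stimulated genes were among the 30 of largest SD. IFIT3 was at 9.34, 8.04, 9.85 and 12.90, RSAD2, the antiviral protein viperin, at 7.25, 7.09, 7.26 and 10.80 and CXCL10 at 7.17, 7.01, 6.96 and 10.62. RSAD2 and CXCL10 were at or close to background on replicates 1 to 3 and far above it on replicate 4 alone. CXCL9 was at 7.45, 6.85, 7.78 and 10.74, USP18, which removes ISG15 from proteins, at 9.75, 8.03, 9.95 and 11.91 and the guanylate-binding protein GBP3 at 9.55, 7.74, 9.39 and 11.60. Replicate 4 was highest and replicate 2 lowest for all of these except CXCL10, which was lowest on replicate 3. The remaining named genes of largest SD were H2-T10 (9.70, 7.68, 9.24 and 11.26), RARRES2, the chemoattractant chemerin (9.17, 8.83, 10.04 and 12.31), and SERPINA3G (9.65, 8.13, 10.65 and 11.49), with the same order of highest and lowest. EG433016 and the rows LOC100044702, LOC100048346, LOC100038882 and OTTMUSG00000000971 completed the 30 and also peaked on replicate 4.

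A few genes departed from this order. ARG1, the arginase of alternatively activated macrophages, was at 11.83, 8.31, 11.04 and 10.29, highest on replicate 1 and lowest on replicate 2. CXCL4, CCL6 (10.54, 7.86, 10.24 and 9.82), the lectin receptor CLEC4D (11.23, 8.29, 10.48 and 10.35) and TLR2 followed ARG1 in being highest on replicate 1 and lowest on replicate 2. SLC1A3, a glutamate transporter, was the single gene of the 76 lowest on replicate 1, at 7.79, 9.90, 10.42 and 10.13.

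**Figure D4:**
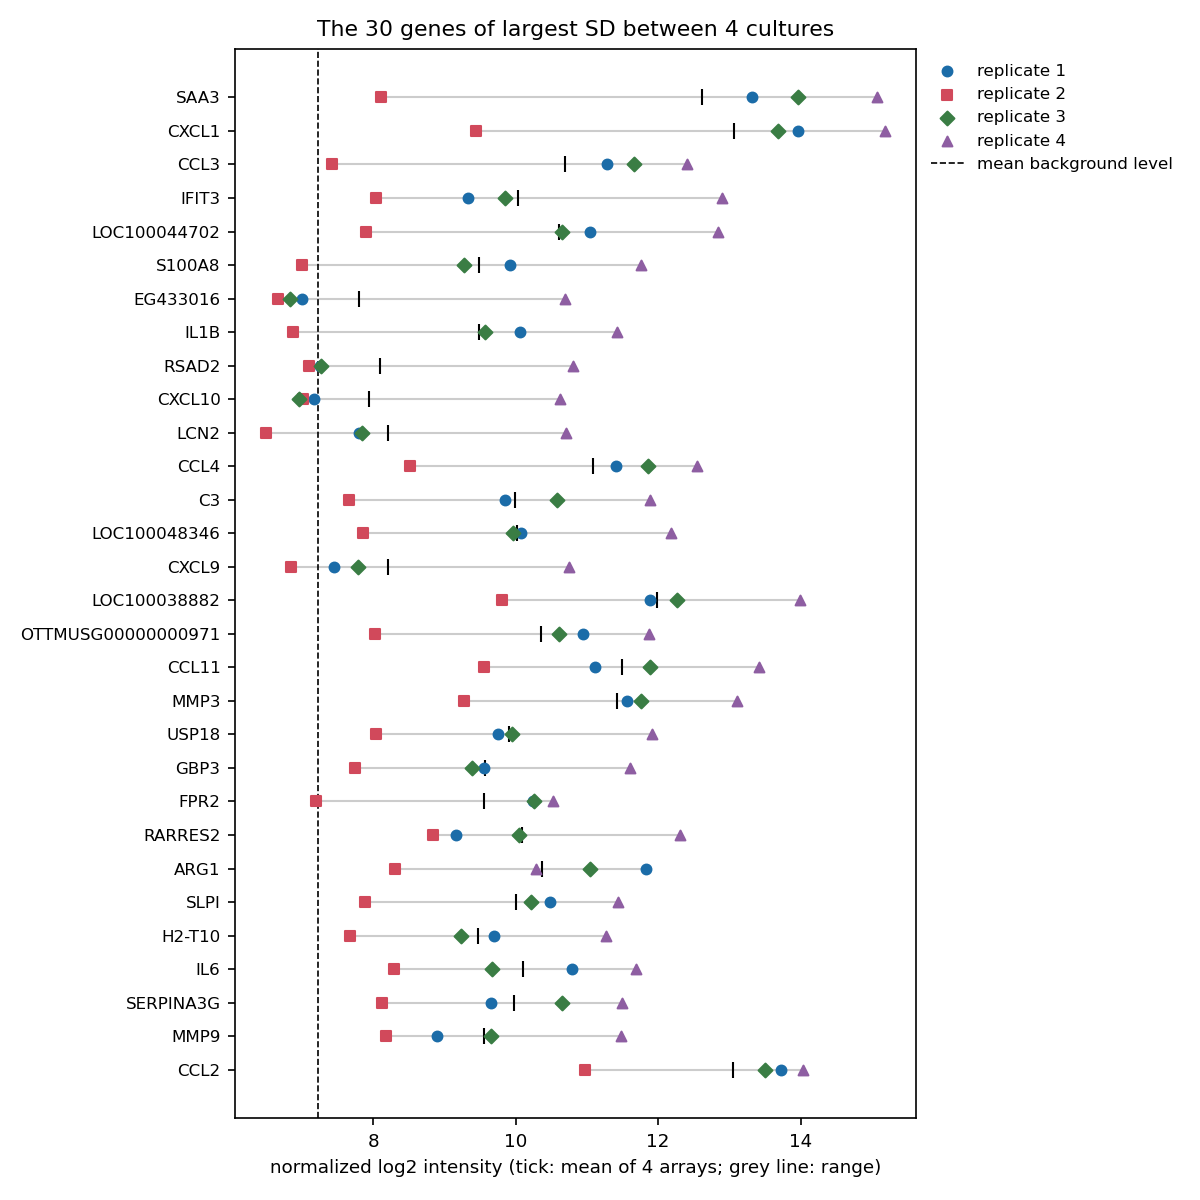
Normalized log2 intensity of the 30 genes of largest SD in each of 4 cultures, with a tick at the mean and a grey line over the range. The dashed line is the mean background level (7.23). Replicate 2 (red squares) is lowest for nearly all genes and replicate 4 (purple triangles) highest for nearly all, with ARG1, highest on replicate 1 (blue circles), the exception.

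Lists were described by the deviation of each gene from its own mean over the 4 arrays. These lists overlap the 76 genes picked by SD, which held 11 of 21 interferon-stimulated genes, 6 of 16 CXC, CX3C and XC chemokines and 5 of 20 CC chemokines, so the lists are no separate evidence of the order. A member above background on 1 array alone, such as CXCL10, also passes a filter only where it is high, and values are therefore given over every member first. Of all 21 interferon-stimulated genes 19 were highest on replicate 4, with a median deviation of 1.31 there, -0.93 on replicate 2, -0.10 on replicate 1 and -0.11 on replicate 3. The 12 of them that were on were all highest on replicate 4. So were the 8 above background on at least 1 array and outside the 76, with a smaller median of 0.67. Over all 9091 genes above background on at least 1 array the median deviation lay between -0.02 and 0.02. Of these genes 25.5% were highest on replicate 4. In the interferon list IRGM1 was at 11.94, 11.78, 11.85 and 12.58 and BST2 at 10.36, 8.79, 11.19 and 11.66. The 16 chemokines of the CXC, CX3C and XC families had median deviations of -0.47 on replicate 2 and 0.40 on replicate 4, and the 6 of them that were on had -1.22 and 0.43. The 20 CC chemokines had -0.11 on replicate 2 and between 0.02 and 0.13 on the others. The 11 of these that were on had -1.43 on replicate 2 and between 0.32 and 0.44 on the others, with the highest median on replicate 3. Of 5 NF-kB genes 4 were highest on replicate 4 and 4 were lowest on replicate 2.

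The 17 macrophage markers had median deviations of 0.51, -0.41, 0.14 and -0.08 on replicates 1 to 4. Replicate 1 was highest for 10 of them, replicate 4 for 3, and replicate 2 lowest for 11. The part of these cells in the spread was not tested. The NF-kB inhibitor genes NFKBIA (10.56, 8.997, 11.05 and 11.63) and TNFAIP3 (9.72, 7.58, 9.13 and 10.22) had an SD above 1 and were lowest on replicate 2 and highest on replicate 4.

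Other lists had other orders of the arrays. Replicate 2 was the highest array for 16 of 23 cell cycle genes, with a median deviation of 0.25, for instance in the replication gene MCM5 (10.15, 11.12, 10.43 and 10.23) and the topoisomerase TOP2A (9.61, 10.30, 9.58 and 9.08). Of 71 mitochondrial ribosomal protein genes 48 were highest there. Beside these counts over every member, 33.0% of the 9091 genes above background on at least 1 array were highest on replicate 2. Over members above background on at least 1 array the counts were 15 of 18 and 46 of 66. Replicate 2 was lowest for 12 of 13 glycolysis genes, beside 23.3% of the 9091 genes. Replicate 4 was lowest for 13 of 15 cholesterol synthesis genes, with a median deviation of -0.27, beside 32.6% of the 9091 genes. Over members above background on at least 1 array these counts were 11 of 12 and 13 of 14. Over members above background on at least 1 array, the median deviation of fibroblast markers ran from -0.08 to 0.05 over the arrays. That of mesenchymal factors ran from -0.08 to 0.06, of HOX genes from -0.09 to 0.09 and of fibrillar collagens from -0.14 to 0.08. Moves up and down cancel in such a median. Single members moved further, for instance DCN (SD 0.73), FAP (0.63) and HOXC10 (0.47). None of the collagen, glycoprotein, proteoglycan or HOX genes had an SD above 1.

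**Figure D5:**
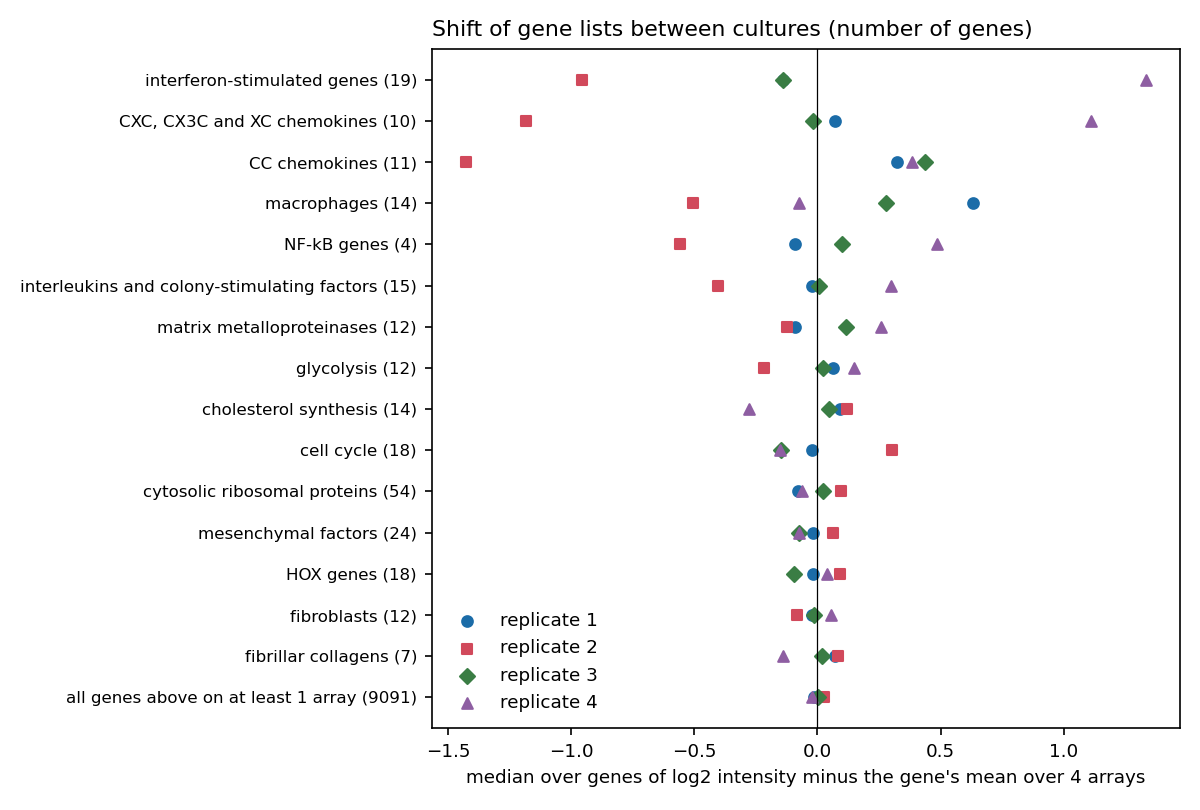
Median deviation of the genes of 15 lists and of all genes above background from their own mean over 4 cultures, on the log2 scale, with 1 symbol per replicate and the number of genes in parentheses. List members above background on at least 1 array are plotted, and over these replicates 2 and 4 part widely for interferon-stimulated genes and chemokines. Some members pass this filter only where they are high. Over every member the medians on replicates 2 and 4 were -0.11 and 0.13 for CC chemokines and -0.47 and 0.40 for the other chemokines. For interferon-stimulated genes they were -0.93 and 1.31. The symbols of fibroblast markers, HOX genes and all genes lie close to 0.

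The count of variable genes depended on 2 arrays. Without replicate 2 the number of genes with an SD above 1 was 32, of which 31 were in the set of 76, and without replicate 4 it was 49, of which 44 were in it. Without replicate 1 it was 92 and without replicate 3 it was 96. The genes of largest SD here also varied within the other groups of the series, whose arrays entered the choice only through the shared normalization. Their median SD was 0.75 in MEKK1+/+ cells with tumor-conditioned medium, 0.76 in untreated MEKK1-/- cells and 0.58 in MEKK1-/- cells with that medium, beside 0.18, 0.15 and 0.16 for all 9091 genes. Of the 76 genes 68, 59 and 50 were above the 95th percentile of SD in those groups. The paper names 3 MEKK1+/+ mice for the cultures of both media together. No culture is tied to a mouse, so the MEKK1+/+ cultures with tumor-conditioned medium cannot be taken as separate animals.

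Promoter sequence had no part in any of these calls and was described for the on, off and variable genes. RefSeq promoters, 250 bases before to 50 after the start in GRCm38.p6, were given for 13433 of the genes. Vertebrate promoters are either rich in CpG, as in most genes used by every cell, or poor in it, as in many genes of restricted expression. The observed over expected number of CpG had a median of 0.77 over 5871 on genes and 0.349 over 6537 off genes, 0.432 for the off genes without olfactory receptors, and 0.619 over all genes of the array. For the 46 genes with a promoter among the 76 of large SD it was 0.214, below the median of the off genes. The letters TATAAA were searched on the sense strand with the first base 45 to 20 bases before the start. They were in 1.41% of on promoters, 4.38% of off promoters and 3.07% of those of all genes of the array. The share was 4.86% for off genes without olfactory receptors, 4.35% for the 46 genes of large SD and 2.57% for all 27025 genes of the table. Among the markers VIM held these letters.

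The letters GAAA, any 2 bases and GAAA again, the core of the element through which interferon-activated factors act, were searched on both strands together with a form of the NF-kB element, GGGA, any base and TTTCC. Both motifs were picked after the variable genes had been seen. The interferon motif was in 12 of the 46 promoters (26.1%), beside 4.01% of genes on the array and 3.99% of the whole table. The NF-kB motif was in 4 of 46 (8.7%), those of Cxcl1, Cxcl2, Il6 and Nfkbia, beside 0.484% and 0.466%. A match is a description of letters and shows no binding. The stretches below are examples, from 25 bases before to 25 bases after a match or to the last base before the start, written 5′ to 3′ on the gene's own strand, with the matched letters in capitals. Positions count back from the start, -1 being the base just before it. Where a match lies on the opposite strand, its capitals show the reverse complement.
Vim: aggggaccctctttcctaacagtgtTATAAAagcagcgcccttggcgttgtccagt
Ifit3: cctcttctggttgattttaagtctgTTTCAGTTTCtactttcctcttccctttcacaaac
Rsad2: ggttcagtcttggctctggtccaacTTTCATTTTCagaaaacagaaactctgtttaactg
Cxcl10: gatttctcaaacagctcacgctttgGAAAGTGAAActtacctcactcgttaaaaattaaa
Gbp2: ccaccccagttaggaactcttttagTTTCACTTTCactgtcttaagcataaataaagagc
Saa3: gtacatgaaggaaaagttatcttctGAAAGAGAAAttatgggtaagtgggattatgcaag
Cxcl1: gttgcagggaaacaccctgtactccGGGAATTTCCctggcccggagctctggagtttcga
Cxcl2: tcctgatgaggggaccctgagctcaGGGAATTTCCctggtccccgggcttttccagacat
Il6: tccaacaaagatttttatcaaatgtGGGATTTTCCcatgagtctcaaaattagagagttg

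In Vim the letters lie from -32 to -27, at chr2:13574254-13574309 on the plus strand. The Ifit3 stretch is at chr19:34583382-34583441 on the plus strand with the match from -122 to -113, a second match lying at -156 to -147. Rsad2 is shown at chr12:26456538-26456597 on the minus strand with the match from -120 to -111, and Cxcl10 at chr5:92349068-92349127 on the minus strand with it from -213 to -204. Gbp2 is at chr3:142620579-142620638 on the plus strand, matched from -59 to -50, and Saa3 at chr7:46715767-46715826 on the minus strand, matched from -125 to -116. For the chemokines Cxcl1 and Cxcl2 the stretches are chr5:90891149-90891208 and chr5:90903777-90903836, both on the plus strand, matched from -71 to -62 and from -97 to -88. The Il6 stretch is chr5:30013045-30013104 on the plus strand, matched from -44 to -35. The genes shown with the NF-kB motif, CXCL1, CXCL2 and IL6, were all lowest on replicate 2 and highest on replicate 4. So were SAA3, IFIT3, RSAD2 and GBP2, while CXCL10 was highest on replicate 4 and lowest on replicate 3. All of these are among the 76 genes picked by SD. Of those 76, 65 (85.5%) were lowest on replicate 2 and highest on replicate 4, so the shared order is no evidence about the motifs.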

How the data were processed

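Gene expression was measured in 16 cultures on Illumina Mouse 8 arrays, of which the 4 labelled MEKK1+/+ control are described. Groups were taken from the titles. The authors deposited linear intensity values, 1 per gene symbol and array, which a core facility had normalized. How it did so, whether background was subtracted and how several probes of 1 gene were joined are not given in the sources used here. The paper's methods z-score the values, and z-scores were not used. A difference in background treatment or in brightness between arrays would change low values most, and the array medians differ. The log2 of the intensity deposited by the authors was therefore quantile normalized over all 16 arrays. Calls above background used each array's intensity as deposited against the 99th percentile of its rows starting OLFR, and 5 calls changed with the normalized values. Signal over background, not read depth, limits precision, and the number of arrays limits the SD.

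Names came from a RefSeq table of GRCm38.p6, by symbol for 14305 genes and by older symbol for 2904, and 923 kept their name only. No test was run, since 1 group is described. Nothing in the labels says that replicates came from separate animals. Named genes were the 30 brightest, THY1, PDGFRA and VIM, up to 6 of the brightest on genes of each list with members needed to account for it, the 30 of largest SD and the rows nearest background. Beside this rule some genes were named after their values were seen: MAP3K1, off members of program lists, CCL6, CLEC4D, TLR2, SLC1A3, NFKBIA, TNFAIP3, CXCL2, GBP2 and other genes of the spread section. The members and lists were chosen with earlier results of these data known. The lists of tissue-restricted and housekeeping families were added after levels had been seen, the integrin name pattern was narrowed after 4 rows that are no integrins were found in it, and the motifs and the member sets over which list deviations are given were picked after the variable genes were seen. Alternatives were other background levels, other scalings, a pseudocount of 16, on genes only and each replicate left out. A few genes of these lists are not reported here by name. The steps were checked on simulated data in which stable genes lay well away from background, so that check does not cover calls near background. Python 3.11.15, pandas 2.3.3, numpy 2.4.6 and matplotlib 3.10.9 were used.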

Additional observations from a re-analysis of the deposited data

Results flagged for a closer look

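Among the 87 genes given with all 4 values, 10 had 1 culture far from the other 3, where the gap to the nearest value, as a share of the range, was above Dixon's 95% critical value for 4 samples. Chance flags about 1 in 20 groups, and over all 9091 genes 5.95% met this limit. Many of the 87 genes were named for their large SD, RSAD2, CXCL10 and FPR2 among them, or after their values were seen. Their share of flags therefore tests nothing against these rates. Replicate 2 stood apart in 6 genes. It was low in CD14 (share 0.935), FPR2 (0.914), TLR2 (0.902), FGF7 (0.875) and AXL (0.858), and high in HOXC9 (0.849). Replicate 4 stood apart in 4 genes, high in RSAD2 (0.955), CXCL10 (0.943) and CCRL2 (0.876) and low in GHR (0.947). No explanation was tested for these genes.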

How the results depend on the processing

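Brightness depends on the probe and the normalization by the core facility is unknown, so levels rank probe signals, and calls near background are the least certain. The number of genes on ran from 6645 with the highest olfactory receptor row as background to 8437 with the 95th percentile. Of 89 alternative values of the counts and medians reported, 82 stayed within 1.5 times the value given. These values have no direction that could change. Only median differences of lists between 2 arrays could change sign, and 0 did. Those differences were not recomputed with a replicate left out. The median SD was 0.380 on values as deposited, where whole arrays differ in brightness. With each replicate left out in turn the median SD ran from 0.131 to 0.178, the genes with an SD above 1 from 32 to 96, those of them shared with the set of 76 from 31 to 76, and the number kept of the 30 most variable genes from 17 to 30. The lowest values were those without replicate 2, apart from the median SD, which was lowest without replicate 1. Of 448 list counts recomputed 419 stayed within 1.5 times, and the 29 that moved include interleukins and colony-stimulating factors, with 12 genes on without replicate 2. The median differences between replicates 4 and 2 of the NF-kB genes (0.56) and between replicates 2 and 4 of cell cycle (1.07) and cholesterol synthesis genes (0.99) moved on values as deposited and kept their sign. No paired analysis was possible because 1 group is described and no test was run.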

Other observations

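Genes of the cell's basic machinery were counted in the same way, beside 42.2% of all genes on. Of 21 actin and tubulin cytoskeleton genes 20 were on, with the tropomyosins TPM1 (14.66 ± 0.21) and TPM4 (14.43 ± 0.25) and the myosin light chain MYL6 (14.37 ± 0.046) near the brightest genes of all, and beta-actin (ACTB) at 13.09 ± 0.14. Cytosolic ribosomal protein genes were on for 53 of 62, glycolysis genes for 12 of 13, with LDHA at 14.57 ± 0.19 and GAPDH at 14.41 ± 0.077, and cholesterol synthesis genes for 14 of 15, with FDPS at 13.23 ± 0.23. Of 23 cell cycle genes 17 were on, including the DNA replication genes RRM1 (10.68 ± 0.39) and MCM5 (10.48 ± 0.44), while CCNA2, CCNB2 and BUB1 were off. Of 21 interferon-stimulated genes 12 were on, 7 were mixed, and MX1 and IFIT1 were off. SDs are over the same 4 cultures.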
